A study of Mus musculus with 6 samples.

Results

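The HIF target genes described here are 10 transcripts that cells raise when oxygen is short: Slc2a1, Slc2a3, Pdk1, Car9, Bnip3, Vegfa, Adm, Egln3, Ankrd37 and Ndrg1. They were chosen by symbol, each matched 1 gene model of the 40303 in the table, and all 10 were tested, as were 13557 models in all, those averaging 10 normalized counts or more. The libraries come from 6 tumours, 1 per mouse, of CT26, a mouse colon carcinoma line, grown under the skin of wild-type BALB/c hosts, whose own blood vessels, fibroblasts and immune cells are part of the tissue. PEG-glutaminase mice (n = 3) received PEGylated glutaminase, an enzyme that breaks down glutamine in the circulation, into the peritoneum at 50 IU per kg. Vehicle mice (n = 3) received phosphate-buffered saline with 10% glycerol, and both groups were dosed 2 times at intervals of 3 days. Neither the ages of the mice nor the time from the last dose to tissue collection is stated in the labels. By the study's design text, glutamine depletion was measured in serum and not in these libraries.

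Hypoxia-inducible factor (HIF) is a transcription factor made of an oxygen-regulated alpha subunit, HIF-1 alpha (Hif1a) or HIF-2 alpha (Epas1), and a constant partner, ARNT. With oxygen present, prolyl hydroxylases (Egln1, Egln2 and Egln3) mark the alpha subunit, the von Hippel-Lindau protein (Vhl) binds the mark and the subunit is destroyed. Without oxygen it is spared, and the complex binds short DNA sites near genes for glucose uptake, glycolysis, blood vessel growth and mitochondrial turnover. Solid tumours often hold poorly supplied regions where this programme is active. The alpha subunit is controlled mainly as a protein, which these data do not measure.

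The sites that HIF binds share the core ACGTG or GCGTG, read as CACGT or CACGC on the other strand. RefSeq promoter windows, from 250 bases before to 50 bases after the start site on GRCm38.p6, were matched for 8 of the 10 genes. All 8 held at least 1 core on either strand in at least 1 window, as did 43.8% of all 32851 windows of the same length and 66.7% of the 10103 tested genes with a window. The windows below belong to the 3 genes with the widest spread over the tumours and, last, to Vegfa, with the narrowest. Capitals mark the cores on either strand, overlaps included.
Bnip3, chr7:138909457-138909756, minus strand: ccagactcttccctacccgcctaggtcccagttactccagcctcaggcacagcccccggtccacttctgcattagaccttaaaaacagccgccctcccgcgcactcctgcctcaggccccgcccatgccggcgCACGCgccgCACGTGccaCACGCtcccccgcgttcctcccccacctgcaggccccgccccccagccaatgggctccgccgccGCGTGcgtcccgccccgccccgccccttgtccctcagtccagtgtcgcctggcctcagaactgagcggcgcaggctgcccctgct
Car9, chr4:43506776-43507075, plus strand: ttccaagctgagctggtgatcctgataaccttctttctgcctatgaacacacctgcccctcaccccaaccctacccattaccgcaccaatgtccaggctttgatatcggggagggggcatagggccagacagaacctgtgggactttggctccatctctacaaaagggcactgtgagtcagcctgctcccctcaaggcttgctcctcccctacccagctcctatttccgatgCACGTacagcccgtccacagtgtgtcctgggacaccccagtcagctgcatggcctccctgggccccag
Ankrd37, chr8:45999801-46000100, minus strand: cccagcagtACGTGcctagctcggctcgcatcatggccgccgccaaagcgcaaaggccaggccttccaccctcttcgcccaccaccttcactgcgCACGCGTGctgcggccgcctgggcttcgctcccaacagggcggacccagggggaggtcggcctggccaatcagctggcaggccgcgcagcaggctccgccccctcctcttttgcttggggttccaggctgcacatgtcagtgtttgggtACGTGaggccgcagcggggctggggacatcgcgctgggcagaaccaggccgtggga
Vegfa, chr17:46032328-46032627, minus strand: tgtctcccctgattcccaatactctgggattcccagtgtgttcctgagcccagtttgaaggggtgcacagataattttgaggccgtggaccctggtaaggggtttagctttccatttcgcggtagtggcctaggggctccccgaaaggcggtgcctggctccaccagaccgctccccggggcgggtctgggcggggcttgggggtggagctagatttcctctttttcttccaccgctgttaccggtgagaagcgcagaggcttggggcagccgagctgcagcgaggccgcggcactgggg
The Bnip3 window held 5 matches, of which CACGT and ACGTG overlap in 1 palindrome, and the Ankrd37 window held 4. The Car9 window held 1, beginning 18 bases before the start site. The window of the first Vegfa start held none, and that of a second, internal start held 2. A match is a run of letters and not evidence of binding, and the mouse strain of the tumours differs from that of this assembly.

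All 10 HIF target genes had a lower mean in the PEG-glutaminase tumours, and none passed the test. The median log2 difference was -0.75 over the 10 genes, against -4.97e-05 over all tested genes, 50% of which had a negative difference. With limma on log2(normalized counts + 1) and Benjamini-Hochberg adjustment over all genes, 0 members passed an adjusted p of 0.05, against 5 of 13557 genes (0.0369%); edgeR also called 0 members. The lowest adjusted p among the members was 0.235. At an unadjusted p under 0.05, limma held 2 members, both lower, against 9.51% of all genes in that direction; edgeR held 2 (9.04% of all genes) and DESeq2 4 (8.95%). DESeq2 called 1 member, Pdk1 (adjusted p = 0.0426), against 3.69% of all genes. The 3 vehicle and 3 PEG-glutaminase tumours did not overlap in 3 members, all lower, against 12.7% of all genes. In bulk tumour RNA, fewer cells of a kind and less RNA per cell cannot be told apart.

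The members shared their outermost tumours, while the order of the other 4 differed from gene to gene. PEG-glutaminase 2 was the lowest of the 6 tumours in 10 of 10 members, as in 24.6% of all tested genes. Vehicle 2 was the highest in 9 of 10, as in 22.8% of all genes, and both held together in 9 members and 10.2% of all genes. The exception was Egln3, highest in vehicle 1. On the log2 scale, with each gene centred on its own mean, the members averaged -1.30 in PEG-glutaminase 2 and 0.80 in vehicle 2. The other 4 tumours lay between these, with vehicle 1 at 0.28, PEG-glutaminase 1 at 0.17, vehicle 3 at 0.05 and PEG-glutaminase 3 at 0.0062. The highest tumour exceeded the lowest by a median of 4.99-fold over the members, against 1.38-fold over all tested genes. The member with the least spread, Vegfa at 2.09-fold, still varied more than 82.0% of tested genes.

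**Figure D1:**
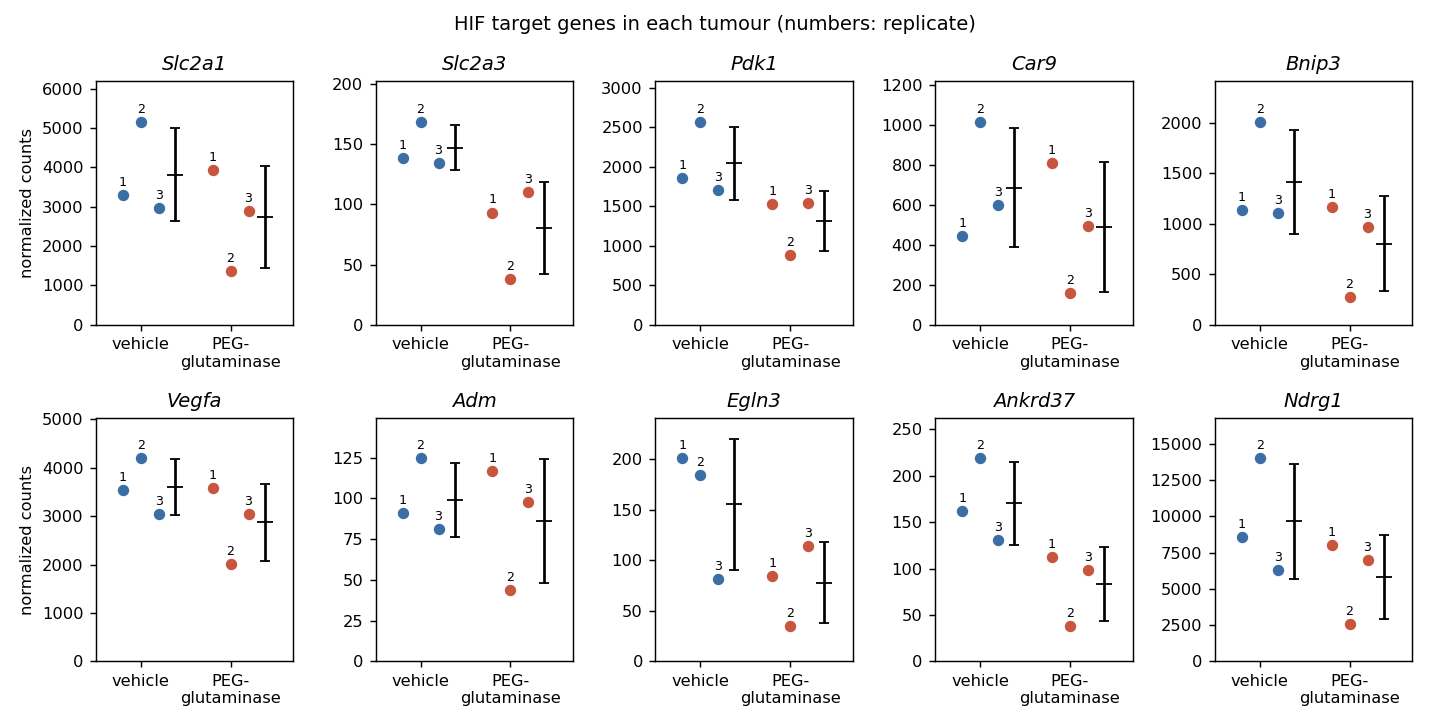
Normalized counts of each HIF target gene (vertical axes from 0) in the 3 vehicle (blue) and 3 PEG-glutaminase (red) tumours, numbered by replicate, with the mean and SD of each group in black. PEG-glutaminase 2 is the lowest point in all 10 panels and vehicle 2 the highest in 9, Egln3 being the exception.

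Glucose enters tumour cells mainly through Slc2a1 (GLUT1), and Slc2a3 (GLUT3) is a carrier of higher affinity. Slc2a1 had 3296, 5159 and 2963 normalized counts in vehicle 1, 2 and 3 and 3942, 1364 and 2891 in PEG-glutaminase 1, 2 and 3. The groups overlapped, with PEG-glutaminase 1 above both vehicle 1 and vehicle 3. Its means were 3806 ± 1184 and 2732 ± 1296 (SD, n = 3 per group), a log2 difference of -0.57 ± 0.47 (SE; limma adjusted p = 0.565). Slc2a3 had 138, 169 and 134 normalized counts in the vehicle tumours and 93.2, 37.6 and 110.1 in the PEG-glutaminase tumours. Every vehicle tumour was above every PEG-glutaminase tumour, at 147 ± 18.8 against 80.3 ± 37.9 and a log2 difference of -0.99 ± 0.38 (limma adjusted p = 0.235). Of 4 other glucose carriers tested, 0 passed, 3 had a lower mean and 1 a higher one. Slc2a9, which also carries urate, stood at -0.31 ± 0.14, Slc2a6 at -0.40 ± 0.19 and Slc2a8 at -0.28 ± 0.14, and the higher one, Slc2a10, at 0.42 ± 0.48. PEG-glutaminase 2 was lowest in 1 of these 4, Slc2a6.

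Pdk1 encodes a kinase that limits the use of pyruvate in the mitochondrion by inactivating pyruvate dehydrogenase. It had 1860.3, 2574 and 1705 normalized counts in the vehicle tumours and 1526, 882 and 1547 in the PEG-glutaminase tumours. The groups did not overlap, at 2046 ± 463 against 1318 ± 378, and the log2 difference was -0.66 ± 0.28 (limma adjusted p = 0.287). The related kinases stayed within a much narrower span. Pdk3 ran from 803 to 933 normalized counts over the 6 tumours, with a log2 difference of 0.03 ± 0.09, and Pdk2 from 58.0 to 79.2, at -0.19 ± 0.19. Pdk4 was at 4.83 or below in every tumour and was not tested. Of the 8 tested genes of pyruvate dehydrogenase and its control other than Pdk1, 0 passed, PEG-glutaminase 2 was lowest in 0, and the median spread was 1.18-fold, against 2.92-fold for Pdk1.

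Car9 encodes a surface carbonic anhydrase that helps tumour cells export acid. It had 442, 1015 and 600.4 normalized counts in the vehicle tumours and 809, 160.4 and 494 in the PEG-glutaminase tumours. PEG-glutaminase 1 was above vehicle 1 and vehicle 3, the groups overlapped, and the means of 686 ± 296 and 488 ± 324 gave a log2 difference of -0.69 ± 0.71 (limma adjusted p = 0.640). Car12, the other membrane enzyme usually described as a hypoxia target, ran from 184 to 231 normalized counts, with a log2 difference of 0.04 ± 0.14. Among 9 other carbonic anhydrases tested, 0 passed limma. Car2, a cytosolic form, stood at -0.73 ± 0.26, and Car6, a secreted form, at 0.98 ± 0.32, with 306 ± 42.8 and 638 ± 257 normalized counts in the vehicle and PEG-glutaminase tumours. DESeq2 called Car6 higher (adjusted p = 0.00206), and limma called it without PEG-glutaminase 2 (adjusted p = 0.0218).

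Bnip3 encodes a mitochondrial outer membrane protein that recruits autophagosomes. It had the widest spread of the members, with 1134, 2013 and 1105 normalized counts in the vehicle tumours and 1165, 275 and 972 in the PEG-glutaminase tumours. Vehicle 2 held 7.31 times the level of PEG-glutaminase 2, and the remaining 4 tumours lay within a narrow band in which PEG-glutaminase 1 was highest. The means of 1417 ± 516 and 804 ± 468 gave a log2 difference of -1.004 ± 0.66 (limma adjusted p = 0.463). Of 7 tested genes of mitophagy and autophagosome formation besides Bnip3, 0 passed limma and 6 had a lower mean. PEG-glutaminase 2 was lowest and vehicle 2 highest in 6 of them, against 10.2% of all tested genes. Bnip3l, the paralog also known as NIX, had a log2 difference of -0.53 ± 0.28. Pink1, the kinase that marks damaged mitochondria, stood at -0.62 ± 0.16 without overlap between the groups (limma adjusted p = 0.137), and DESeq2 called it lower (adjusted p = 0.0101). Map1lc3b, a component of the autophagosome membrane, stood at -0.33 ± 0.11, also without overlap. The groups did not overlap in 2 of the 7, both lower, against 12.7% of all genes.

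Vegfa, the main growth factor for blood vessels, had 3539, 4192 and 3039 normalized counts in the vehicle tumours and 3570.2, 2009 and 3048 in the PEG-glutaminase tumours. PEG-glutaminase 1 and 3 both lay above vehicle 3, and PEG-glutaminase 2 stood apart below. The means were 3590.0 ± 578 and 2876 ± 795, with a log2 difference of -0.35 ± 0.24 (limma adjusted p = 0.461). Among its relatives, Vegfb stood at 0.06 ± 0.08, Vegfc, which drives lymphatic growth, at 0.39 ± 0.33 and Vegfd at -0.48 ± 0.20. The receptor Kdr had the outermost tumours reversed, with vehicle 2 lowest at 279.6 normalized counts and PEG-glutaminase 2 highest at 674. The Kdr groups did not overlap, at 344 ± 57.0 against 532 ± 123 and a log2 difference of 0.62 ± 0.18 (limma adjusted p = 0.154), and DESeq2 called it higher (adjusted p = 0.0322). The coreceptor Nrp1 stood at 0.41 ± 0.22 and the receptor Flt1 at 0.11 ± 0.12. Of the 9 tested genes of this family besides Vegfa, 0 passed limma, and PEG-glutaminase 2 was the highest tumour in 5 of them, as in 23.9% of all tested genes.

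Adm encodes adrenomedullin, a peptide that widens blood vessels. It had 90.8, 124.6 and 81.4 normalized counts in the vehicle tumours and 117, 43.6 and 97.7 in the PEG-glutaminase tumours. Setting aside the 2 tumours numbered 2, both PEG-glutaminase tumours were above both vehicle tumours. With all 6, the means of 98.9 ± 22.7 and 86.1 ± 38.1 gave the smallest difference of the members, -0.29 ± 0.36 on the log2 scale (limma adjusted p = 0.693). Its receptor Calcrl stood at 0.23 ± 0.14, and the receptor partners Ramp2 and Ramp3 at -0.05 ± 0.18 and -0.77 ± 0.29; 0 of the 6 tested genes of this family passed.

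Egln3 is both a prolyl hydroxylase acting on HIF and a HIF target, which makes it part of a negative feedback loop. It had 201, 184 and 81.4 normalized counts in the vehicle tumours and 84.9, 34.6 and 114 in the PEG-glutaminase tumours. Vehicle 3 fell among the PEG-glutaminase tumours, so the groups overlapped, and the means of 156 ± 64.8 and 77.9 ± 40.2 gave a log2 difference of -1.04 ± 0.55 (limma adjusted p = 0.359). The paralogs differed in spread. Egln1, itself a known HIF target, ran from 2519 to 4579 normalized counts with the same lowest and highest tumours as most members, at a log2 difference of -0.21 ± 0.19. Egln2, which is not known as one, ran from 1495 to 1591, a 1.06-fold span that only 0.243% of tested genes undercut.

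Ankrd37, an ankyrin repeat protein, had 162, 219 and 130.5 normalized counts in the vehicle tumours and 113, 37.6 and 98.8 in the PEG-glutaminase tumours. The groups did not overlap, and its log2 difference of -1.14 ± 0.44 was the largest of the members (170.5 ± 44.7 against 83.1 ± 40.0; limma adjusted p = 0.240). Ndrg1, a cytoplasmic protein induced by hypoxia and by metal ions, had 8603, 13991 and 6330.5 normalized counts in the vehicle tumours and 8004, 2549 and 6968 in the PEG-glutaminase tumours. Its groups overlapped, and the means of 9642 ± 3935 and 5840.4 ± 2897 gave a log2 difference of -0.81 ± 0.57 (limma adjusted p = 0.492). Of the 2 paralogs tested, 0 passed limma, with Ndrg3 at -0.18 ± 0.10 and Ndrg2 at -0.95 ± 0.57. With 1 library left out, Ndrg3 ran from -0.25 to -0.11 and Ndrg2 from -1.31 to -0.28.

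Divided by the length of the longest GENCODE M21 transcript, Ndrg1 was the most abundant member in vehicle tumours, at 2381 ± 972 normalized counts per kilobase. Slc2a1 (1167 ± 363), Vegfa (1040.3 ± 167) and Bnip3 (807 ± 294) followed, and each overlapped the gene above it in single-tumour values. Pdk1 (395 ± 89.4) lay below Bnip3 without overlap and overlapped Car9 (339 ± 146), which overlapped Ankrd37 (184 ± 48.2). Adm (71.2 ± 16.3) lay below Ankrd37 without overlap and overlapped Egln3 (58.4 ± 24.3). Slc2a3 was the least abundant, at 23.5 ± 3.01 per kilobase, and did not overlap Egln3.

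The size of the difference between the groups changed when the tumours numbered 2 were left out. These tumours were picked because they were outermost in these same members. Leaving them out was therefore bound to raise the log2 difference, and the fits below only show by how much. Without PEG-glutaminase 2 the median log2 difference of the members was -0.32, and 9 of 10 were lower, as were 50.4% of all genes; Adm changed sign, to 0.14. Without vehicle 2 the median was -0.49. Without both tumours it was -0.03, with 5 members lower and 5 higher, against 49.3% of all genes lower. In that fit the values were 0.31 ± 0.21 for Adm, 0.29 ± 0.28 for Car9, 0.11 ± 0.15 for Slc2a1, 0.02 ± 0.15 for Ndrg1 and 0.01 ± 0.11 for Vegfa. The lower ones were Ankrd37 at -0.46 ± 0.20, Slc2a3 at -0.42 ± 0.20, Egln3 at -0.37 ± 0.43, Pdk1 at -0.21 ± 0.09 and Bnip3 at -0.07 ± 0.11. Limma called 0 members in each of these fits, and 20 and 15 genes over the whole table without PEG-glutaminase 2 (0.148% of genes tested) and without both (0.111%).

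**Figure D2:**
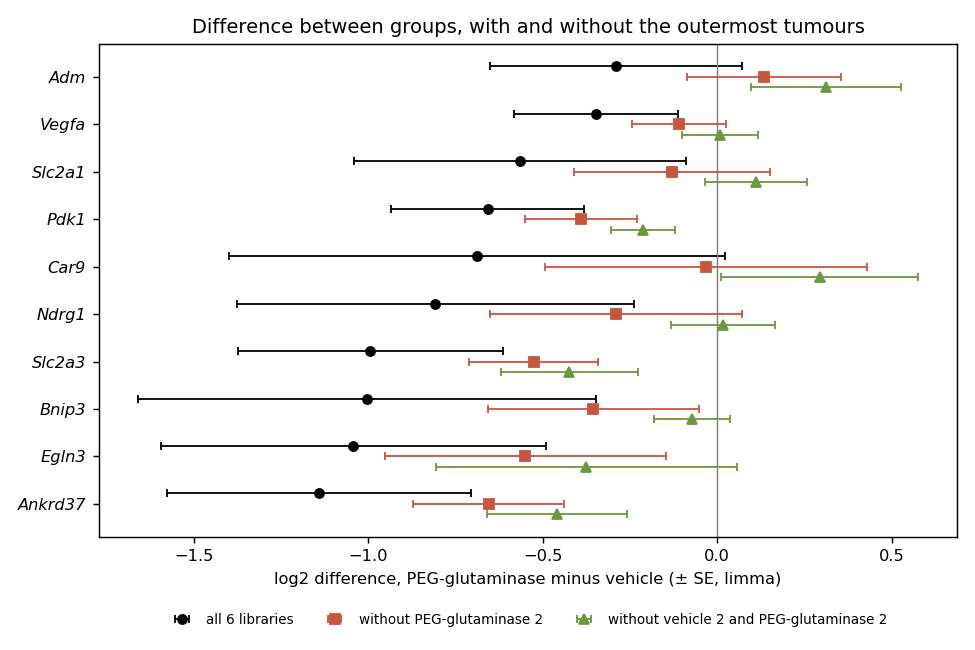
Log2 difference of each HIF target gene, PEG-glutaminase minus vehicle (horizontal axis, points with SE bars from limma), with all 6 tumours (black), without PEG-glutaminase 2 (red) and without vehicle 2 and PEG-glutaminase 2 (green). All 10 black points lie below 0, while 5 of the 10 green points lie above it. The tumours left out were picked as the outermost in these same genes, so a move to the right was bound to follow.

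Transcripts of the HIF subunits varied little or had other outermost tumours. Hif1a ran from 2521 to 2703 normalized counts, a 1.07-fold span narrower than that of all but 0.369% of tested genes, with a log2 difference of 0.05 ± 0.07. Arnt spanned 1.10-fold (-0.06 ± 0.07) and Hif1an, the asparagine hydroxylase that blocks HIF activity, 1.18-fold (0.03 ± 0.09). Epas1, the HIF-2 alpha subunit typical of endothelium, had the outermost tumours reversed, lowest in vehicle 2 at 203 and highest in PEG-glutaminase 2 at 582 normalized counts, with a log2 difference of 0.47 ± 0.34. Vhl was lower in every PEG-glutaminase tumour, at 606 ± 34.0 against 778 ± 57.1, with a log2 difference of -0.36 ± 0.09 that did not pass (limma adjusted p = 0.134). Arnt2 stood at -0.46 ± 0.27. Of 15 tested genes of oxygen sensing, 0 passed, 9 were lower and 6 higher, and the median difference was -0.06. PEG-glutaminase 2 was lowest in 6 of the 15 and vehicle 2 highest in 5, against 24.6% and 22.8% of all tested genes. The 2 held together in 4, against 10.2% of all tested genes, so part of this list shared the outermost tumours of the members.

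**Figure D3:**
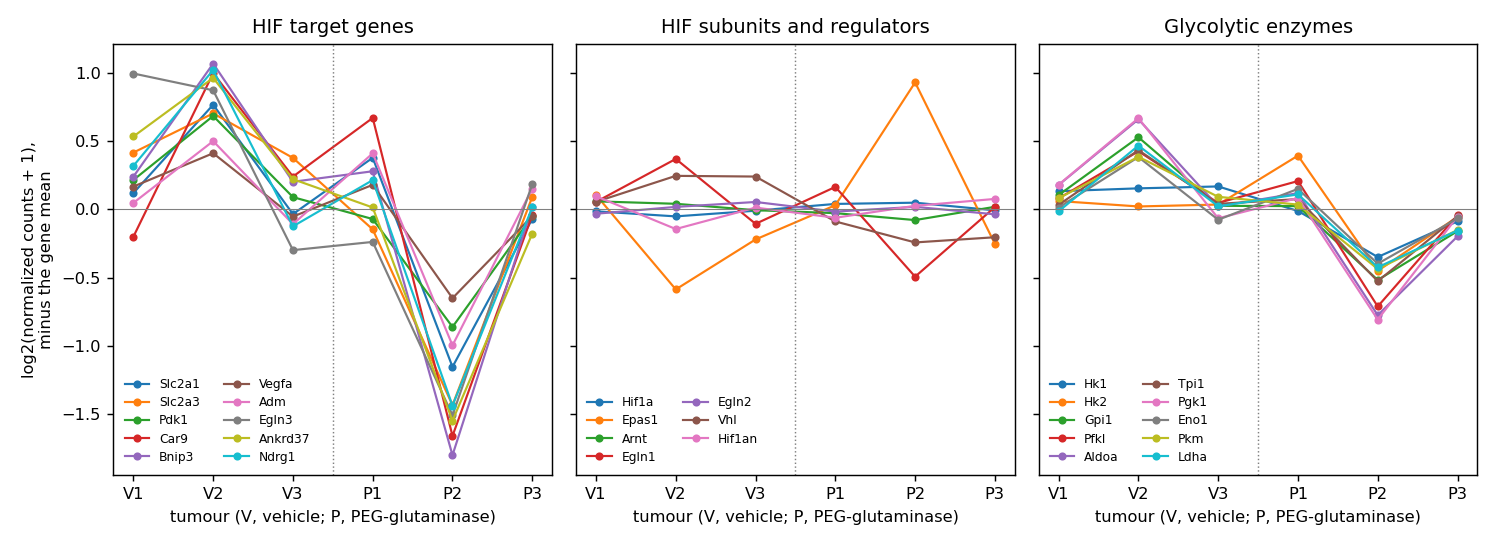
Log2(normalized counts + 1) minus each gene's mean over the 6 tumours (vertical axis) by tumour (V1 to V3, vehicle; P1 to P3, PEG-glutaminase) for the HIF target genes, the HIF subunits and regulators, and 10 glycolytic enzymes. The targets dip together in P2, to an average of -1.30, and the glycolytic enzymes dip less, while Hif1a stays flat and Epas1 peaks in P2.

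Other genes commonly listed as HIF targets shared these outermost tumours in part. Of 51 tested, limma called 0, 37 had a lower mean and 14 a higher one, and the median difference was -0.27. PEG-glutaminase 2 was lowest in 35 and vehicle 2 highest in 27, against 24.6% and 22.8% of all tested genes. The median spread was 2.03-fold. Without PEG-glutaminase 2 the median log2 difference of this list was -0.03. The lactate exporter Slc16a3 stood at -0.58 ± 0.46 and P4ha1, a collagen prolyl hydroxylase, at -0.33 ± 0.30. The lowest p among these genes belonged to Hmox1, haem oxygenase, at 0.54 ± 0.10, and to Bhlhe41, a transcriptional repressor, at -0.61 ± 0.13 (limma adjusted p = 0.111 and 0.114; both called by DESeq2, at 0.00139 and 0.00264). Neither pair of groups overlapped. Hmox1 was highest in PEG-glutaminase 1, at 2371 normalized counts, and not in vehicle 2. Gbe1, the glycogen branching enzyme, stood at -0.40 ± 0.12 and Tgfa, an EGF receptor ligand, at 0.46 ± 0.15.

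Glycolytic enzymes, many of them HIF targets, had lower means in 14 of 14 tested genes, with 0 passing limma and a median of -0.33. PEG-glutaminase 2 was lowest in 14 and vehicle 2 highest in 11, against 24.6% and 22.8% of all tested genes. The median spread was 1.88-fold, less than the 4.99-fold of the members. Without PEG-glutaminase 2 the median log2 difference of these enzymes was -0.17. The groups did not overlap in 4 of the 14, all lower, against 12.7% of all genes. The smallest p values belonged to Hk1, which phosphorylates glucose, at -0.30 ± 0.09, Pkm, pyruvate kinase, at -0.37 ± 0.14 and Gpi1, glucose phosphate isomerase, at -0.44 ± 0.17, each without overlap (limma adjusted p of 0.164, 0.221 and 0.236). Pgk1 stood at -0.52 ± 0.30, Ldha, which makes lactate, at -0.31 ± 0.17 and Hk2 at -0.08 ± 0.19. Several of these genes, Ldha and Pgk1 among them, have pseudogene copies, and the labels do not say how reads shared by copies were assigned.

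**Figure D4:**
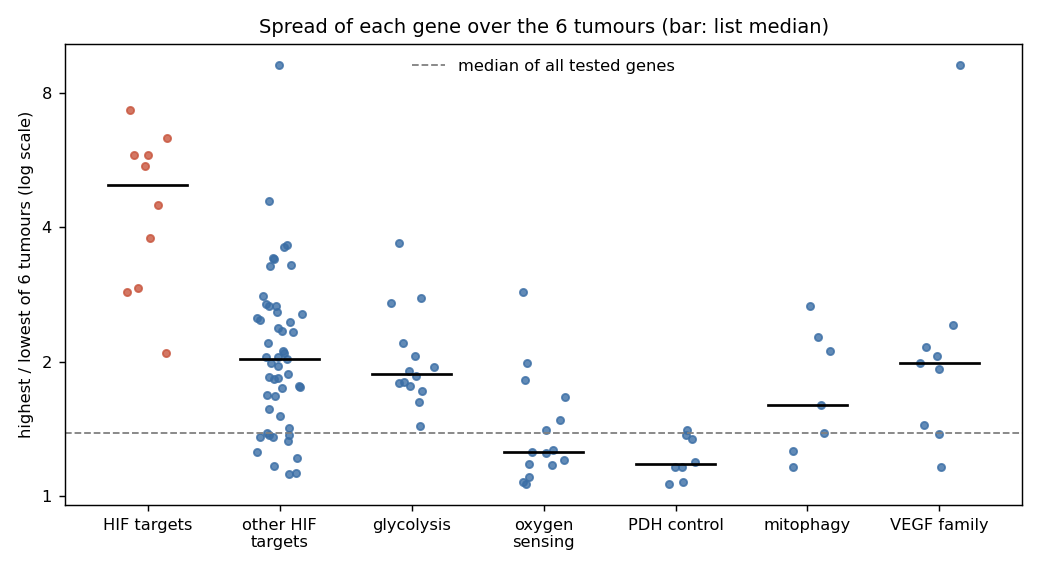
Ratio of the highest to the lowest of the 6 tumours for each tested gene (log axis), grouped by gene list, with the list median as a bar and the median of all tested genes, 1.38, as a dashed line. The HIF target genes (red) have a median of 4.99 and the oxygen-sensing genes one of 1.25.

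The transcripts whose profile was most like the average of the members were sought among 174 genes with a mean of at least 50 and at least as wide a spread as that average. The highest Pearson correlations over the 6 tumours were those of Eno2, a glycolytic enolase (r = 0.997), the predicted gene Gm14506 (r = 0.987), Lims2, an adaptor of focal adhesions (r = 0.978), Tnfrsf9, the costimulatory receptor 4-1BB (r = 0.977), and Rgs1, a regulator of G protein signalling (r = 0.938). These describe 6 libraries, with 2 tumours at the ends of every profile. Eno2 had 1722, 2467 and 1329 normalized counts in the vehicle tumours and 1587, 437 and 1230.4 in the PEG-glutaminase tumours. Each member's profile correlated with the mean of the other 9 at 0.871 (Egln3) to 0.994 (Bnip3).

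Markers of other cells differed in the same tumours. The summed level of 10 endothelial markers was 5075 normalized counts in PEG-glutaminase 2 and 3657 in vehicle 2, the highest and the lowest of the 6, with the PEG-glutaminase tumours spanning 3710 to 5075 and the vehicle tumours 3657 to 3843. PEG-glutaminase 2 was the highest tumour in 8 of the 10, against 23.9% of all tested genes. The median log2 difference of the 10 was 0.21 with all 6 tumours and -0.03 without PEG-glutaminase 2. The sum of 7 fibroblast markers was highest in PEG-glutaminase 2 (74244) and lowest in vehicle 2 (52212), with PEG-glutaminase 1 and 3 at 58803 and 59289 and vehicle 1 and 3 at 62290 and 70933. Single fibroblast markers were mixed: PEG-glutaminase 2 was highest in 3 of the 7 and lowest in 1, Dcn, and 4 had a lower mean and 3 a higher one. The 7 T cell markers summed to 229.7 in PEG-glutaminase 2, to 662 and 1023 in PEG-glutaminase 1 and 3 and to between 1106 and 1552 in the vehicle tumours. All 7 had a lower mean in the PEG-glutaminase tumours, with a median log2 difference of -1.69, or -0.62 without PEG-glutaminase 2. Limma called 0, and 4 did not overlap between the groups, against 12.7% of all genes. PEG-glutaminase 2 was lowest in 6 of the 7 T cell markers and vehicle 2 highest in 0, against 24.6% and 22.8% of all tested genes. The sum of skeletal muscle markers (10 listed, 8 tested) was highest in PEG-glutaminase 2, at 1675. It was 135 and 194 in the other PEG-glutaminase tumours and 271 to 1108 in the vehicle tumours. PEG-glutaminase 2 was the highest tumour in 6 of the 8, against 23.9% of all tested genes. On the log2 scale all 8 had a lower mean in the PEG-glutaminase tumours, and limma called 0. Their median log2 difference was -1.15, or -2.51 without PEG-glutaminase 2. All endothelial, fibroblast and T cell markers had reads in each tumour, and the part of these markers in the member values was not tested. The blood marker Hbb-bs, a beta globin, was higher in all 3 PEG-glutaminase tumours (1048, 972 and 759 against 395, 414 and 472). It was the 1 limma call among the 3 erythroid markers tested (limma adjusted p = 0.0371). This call was lost when vehicle 1, vehicle 2 or PEG-glutaminase 1 was left out (limma adjusted p = 0.127, 0.175 and 0.181) and without both tumours numbered 2 (0.0628), with log2 differences of 1.01 to 1.24 over the fits with 1 library left out. All 3 erythroid markers had a higher mean in the PEG-glutaminase tumours, at a median log2 difference of 1.16, or 1.07 without PEG-glutaminase 2. DESeq2 called 2 of the 3, against 3.69% of all genes. Limma called 0 of the 8 macrophage, 5 neutrophil and 2 adipocyte markers tested. Keratinocyte markers summed to 8200 in vehicle 1 and to between 95.0 and 289 elsewhere. All 8 tested had a lower mean in the PEG-glutaminase tumours, limma called 0, and 4 did not overlap between the groups (12.7% of all genes). Vehicle 1 was the highest tumour in 1 member, Egln3, and the part of keratinocyte markers in its values was not tested. Epithelial markers, checked against the label of the tumour, summed to 4696, 4821 and 5438 in the vehicle tumours and to 3936, 2595 and 3620 in the PEG-glutaminase tumours. These sums did not overlap between the groups and were lowest in PEG-glutaminase 2, as the members were, but highest in vehicle 3. Of 6 tested, limma called 0; at an unadjusted p under 0.05, 3 were lower (Krt20, Cdh1 and Epcam) and 1, Cdx2, was higher. Krt20, which makes up most of the sum, ran from 2349 to 5226 normalized counts, at a log2 difference of -0.60 ± 0.17 (limma adjusted p = 0.153), while Epcam lay at 58.0 or below, Krt8 at 27.8 or below, and Cldn3 and Cldn7 at 2.07 or below. The part of the epithelial markers in the member values was not tested either.

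The vehicle libraries held between 17380129 and 18051480 recovered reads and the PEG-glutaminase libraries between 16455052 and 16791267. Each library is 1 mouse, so the tests rest on the variation from mouse to mouse. In the RefSeq annotation Car9 overlaps Arhgef39 and Tpm2, Ankrd37 overlaps Ufsp2, and Slc2a1, Slc2a3, Bnip3 and Adm overlap non-coding RNAs or pseudogenes. These are overlaps of whole gene spans, introns included, and whether exons overlap was not checked. The labels do not say whether counting used strand, so how reads of any shared sequence were assigned is not known.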

How the data were processed

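RNA of 6 CT26 tumours was captured on poly-T beads and sequenced, per the labels' protocols. The deposited table holds an expression signal for each gene model: reads scaled by library, called normalized counts here. Tools named in the submitters' processing notes are STAR, featureCounts, FastQC, DESeq and DESeq2; no build is named there. The authors' deposited comparison in the same table (mean signal, log2 fold change and its SE, Wald score, p-values) was used only as described under the other observations. Of 40396 rows, 93 repeated a gene model and were used once. Values were whole multiples of 1 read within 0.01 for 100% of non-zero low values (under 1000 reads), and whole reads were so recovered; for PEG-glutaminase 2, whose step lies near 1, this rests on the values alone.

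The test was limma 3.58.1 in R 4.3.3 on log2(value + 1), with trend and robust estimation, two-sided, over genes with a mean of at least 10, at an adjusted p of 0.05. Fold changes on this scale understate those of low genes. An exact permutation test of 3 against 3 cannot go below 0.10. edgeR 4.0.16 and DESeq2 1.42.0 on recovered reads, other filters, pseudocounts and scalings, and each library left out were alternatives. The test was tried on simulated counts. The members and lists were chosen with earlier results of these data known. The naming rule took all members, set genes of the pathway whatever their result, up to 4 genes of smallest p per list, and the 5 most like profiles; leaving out both tumours numbered 2 was added after seeing the data.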

Additional observations from a re-analysis of the deposited data

How the results depend on the processing

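Over all genes, limma called 5 genes, 1 higher and 4 lower. The count was 136 with no filter on low values (65 higher, 71 lower), 500 by DESeq2 (224 higher, 276 lower), 15 without both tumours numbered 2 (6 higher, 9 lower), and 0 to 26 with 1 library left out (0 to 10 higher, 0 to 22 lower). It was 0 when vehicle 1, vehicle 2 or PEG-glutaminase 1 was left out, where 2366, 1683 and 1936 genes had an unadjusted p under 0.05. Members called were 0 in these settings except DESeq2, which called 1, Pdk1. The sample titles number the tumours but name no pairs. Same-numbered tumours deviated from their group means with correlations of -0.13, -0.21 and -0.22, and differently numbered ones with -0.01 to 0.19. These values cannot settle whether same-numbered tumours were handled together. A limma fit that took the number as a replicate block called 1 gene, which was higher, and 0 members. The median difference of the members was -1.14 to -0.32 with 1 library left out and -0.0320 without both tumours numbered 2. Under the other pseudocounts, filters, scalings and tools it lay between -0.75 and -0.67.

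Without both tumours numbered 2 the sign turned for Slc2a1 (0.11), Vegfa (0.0085), Car9 (0.29), Adm (0.31), Ndrg1 (0.0171), Epas1 (-0.0534), Egln1 (0.12), Hif1an (-0.0470), Slc16a3 (0.0190), P4ha1 (0.13), Hk2 (0.12), Rgs1 (0.0252) and Gm14506 (0.0320). With 1 library left out the sign turned for Adm (-0.57 to 0.14), Hif1an (-0.0409 to 0.0792), Pdk3 (-0.0186 to 0.0669), Flt1 (-0.0026 to 0.23), Ramp2 (-0.14 to 0.10), Car12 (-0.0179 to 0.14) and Hk2 (-0.29 to 0.13). The Hbb-bs call was also lost with the replicate block (limma adjusted p = 0.0952). The cause was not tested.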

Other observations

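Immediate early genes, which cells switch on quickly after stress or handling, were checked in the same tumours. Of 10 tested, limma called 0 and 7 had a lower mean in the PEG-glutaminase tumours, with a median log2 difference of -0.17. Fosb stood at -0.63 ± 0.19 and Egr2 at -0.46 ± 0.17 (SE), each without overlap between the groups, and Jun at 0.17 ± 0.09, also without overlap. PEG-glutaminase 2 was the lowest tumour in 5 of the 10 and vehicle 2 the highest in 3, against 24.6% and 22.8% of all tested genes.

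In the authors' deposited table the mean signal differed by over 1% from the mean of the 6 library columns in 65.6% of the 13557 tested genes, and by 7.13% for Car9, so the authors' comparison in that table does not rest on exactly these 6 columns as given. In the authors' deposited table all 10 members had a negative log2 fold change, from -0.88 for Egln3 to -0.34 for Vegfa, and the lowest adjusted p was 0.0649, for Pdk1.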
